A study of Rattus norvegicus with 32 samples.

Results

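Chemokines are small secreted proteins that draw leukocytes through tissue, and the genes described here are the CC and CXC chemokines with their receptors in the intestinal mucosa of Zucker rats. They were chosen by name, as the genes whose probe sets carry 1 symbol that begins with Ccl, Cxcl, Ccr or Cxcr and a number. This gave 47 of 17245 genes, from 48 of 29214 probe sets. *Ccr3* has a pair of probe sets, of which the one with the higher mean was used, and the other passed no test. Affymetrix Rat Gene 1.1 ST arrays had been hybridised with mucosal RNA of 32 male rats, 1 array per rat. Zucker lean Lepr+/fa (ZL) rats carry 1 mutant copy of the leptin receptor gene and served as lean controls, and Zucker-Lepr fa/fa (ZO) rats carry the mutation on both copies in all cells and become obese. At baseline there were 4 rats of each genotype, 4 more of each were sampled after placebo by mouth every day for 30 days, and 16 ZO rats after a probiotic given in the same way for as long. The labels name no strain for the 16 probiotic rats, which therefore formed 1 group. By the study's design this group holds several treatments, single strains and a mixture. The labels give 1 age, 6 weeks, for all rats, so the time comparisons rest on the group names and on the study's design.

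As background, chemokines bind membrane receptors that signal through inhibitory G proteins, and a ligand often has several receptors. Some are made in the resting gut: CCL25 of the small intestinal epithelium draws CCR9+ lymphocytes, CCL20 of the epithelium over lymphoid follicles draws CCR6+ cells, CCL28 draws CCR10+ plasma cells, and CXCL13, CCL19 and CCL21 arrange B and T cells in follicles through CXCR5 and CCR7. Others are induced in inflammation: CXCL9, CXCL10 and CXCL11 follow interferons and act on CXCR3, CXCL1 and its relatives draw neutrophils through CXCR2, CCL2 draws monocytes through CCR2, CCL11 and CCL24 draw eosinophils through CCR3, and CCL17 and CCL22 act on CCR4. Of the 47 genes, 31 encode ligands (7 CC ligands of resting tissue, 12 inflammatory CC ligands, 4 neutrophil, 3 interferon-induced and 4 other CXC ligands, and *Ccl26*) and 16 encode receptors or a receptor-like protein (9 CC, 6 CXC and *Ccr1l1*). *Ccl24* was counted among the 7 CC ligands of resting tissue, although it is named above with the ligands of inflammation. Many share a position: 10 CC ligand genes lie on chromosome 10, 8 CXC ligand genes on chromosome 14 and 9 receptor genes on chromosome 8.

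The neighbouring interferon-induced ligand genes *Cxcl11*, *Cxcl10* and *Cxcl9* and the CC ligand gene *Ccl6* are shown by their promoters, since *Cxcl11* and *Ccl6* carried the clearest changes over time and *Cxcl10* and *Cxcl9* are of the same class as *Cxcl11*. The sequences are those of RefSeq on GRCr8, from 250 bases before to 50 after the gene start, read 5′ to 3′ on the gene's strand. Capitals mark the interferon response element (GAAA, any 2 bases, and GAAA again), the NF-kB consensus and the TATA box letters TATAAA, each searched on both strands.
Cxcl11 (chr14:15973478-15973777, plus strand): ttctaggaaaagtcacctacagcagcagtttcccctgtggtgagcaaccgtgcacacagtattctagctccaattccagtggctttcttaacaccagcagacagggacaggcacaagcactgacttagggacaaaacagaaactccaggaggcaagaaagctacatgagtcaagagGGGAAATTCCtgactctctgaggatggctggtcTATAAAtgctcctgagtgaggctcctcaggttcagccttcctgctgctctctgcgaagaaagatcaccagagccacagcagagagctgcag
Cxcl10 (chr14:15988816-15989115, plus strand): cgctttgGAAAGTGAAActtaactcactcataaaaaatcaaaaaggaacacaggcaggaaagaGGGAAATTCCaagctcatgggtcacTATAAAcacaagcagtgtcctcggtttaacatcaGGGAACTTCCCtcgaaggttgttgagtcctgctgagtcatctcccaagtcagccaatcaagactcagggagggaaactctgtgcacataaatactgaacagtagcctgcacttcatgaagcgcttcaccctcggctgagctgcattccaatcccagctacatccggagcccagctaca
Cxcl9 (chr14:16006916-16007215, plus strand): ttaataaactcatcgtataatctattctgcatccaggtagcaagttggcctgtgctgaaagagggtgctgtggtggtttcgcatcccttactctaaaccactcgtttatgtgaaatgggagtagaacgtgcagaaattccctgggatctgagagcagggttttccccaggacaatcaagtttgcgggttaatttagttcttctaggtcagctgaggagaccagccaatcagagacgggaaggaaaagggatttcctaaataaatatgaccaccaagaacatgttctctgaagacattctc
Ccl6 (chr10:68883317-68883616, minus strand): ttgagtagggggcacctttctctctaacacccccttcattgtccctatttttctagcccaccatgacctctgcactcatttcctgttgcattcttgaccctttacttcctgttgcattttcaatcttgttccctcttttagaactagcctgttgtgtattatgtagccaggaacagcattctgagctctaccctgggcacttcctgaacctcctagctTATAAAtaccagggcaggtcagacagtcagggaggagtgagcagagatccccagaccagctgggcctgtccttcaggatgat
In the *Cxcl11* window an NF-kB match began at position -74 and TATAAA at -41, and in the *Cxcl10* window NF-kB matches began at -187 and -128 (the latter overlaps a match on the other strand at -127), with GAAAGTGAAA at -243 and TATAAA at -162. The *Ccl6* window held TATAAA at -32, and none of these letters stood in the *Cxcl9* window. Promoters were held for 35 of the 47 genes. Of these, 9 (25.7%) held an NF-kB match, against 7.6% of 27457 promoters of the same length, 10 (28.6%) held TATAAA, against 14.3%, and 2 (5.71%) held the interferon response element, against 3.77%. The 9 genes with an NF-kB match were *Cxcl1*, *Cxcl2*, *Cxcl6*, *Cxcl10*, *Cxcl11*, *Ccl7*, *Ccl9*, *Ccl20* and *Ccr3*. A match is a description of the letters and shows no bound factor.

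Values are log2 RMA signals of a probe set, so a difference of 1 is a 2-fold difference in signal, and signals of different probe sets are not set against each other. Array medians lay between 4.79 and 4.97. The epithelial markers, of which 10 of 12 were measured, had a mean between 12.25 and 12.48 in each of the 32 rats. The mean of 5 measured genes that vary along the gut was 8.73 in ZL placebo rat C13, which stood apart. It was 9.71 in ZO baseline rat Z1 and 10.49 to 11.12 in the other rats. Results that rest on C13 are therefore also given without it. For the other genes of the chemokine system this choice was made after the values had been seen. Z1 was left out only in the runs without single rats. In RNA of a whole tissue, fewer cells of a type and less RNA per cell cannot be told apart. A gene passed the test where its limma p, from 1 model of the 5 groups and adjusted by Benjamini-Hochberg across the 29214 probe sets, was under 0.05.

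*Cxcl11*, which encodes an interferon-induced ligand of CXCR3, rose over the 30 days on placebo, *Ccr9*, the receptor gene of gut-homing lymphocytes, also rose, and *Ccl6*, a CC ligand gene of rodents expressed in macrophages, fell. This holds for the change averaged over the ZL and ZO rats, the mean of the differences of placebo from baseline in each genotype. It does not show a change in each genotype by itself. Growth, placebo feeding and time of sampling cannot be told apart in it. Of the 47 genes, 2 rose and 1 fell, and 4.02% of all probe sets passed in this comparison (2.67% higher and 1.35% lower). In *Cxcl11* the ZL rats had 8.05, 7.02, 7.80 and 7.32 at baseline and 8.04, 8.78, 8.26 and 8.46 after placebo. The ZO rats had 7.27, 7.32, 7.83 and 7.55 at baseline and 7.86, 8.05, 8.05 and 8.12 after placebo. The ZO groups did not overlap, and the ZL groups overlapped only by baseline rat C1 (8.05) and placebo rat C11 (8.04). The averaged log2 fold change was 0.68 (standard error 0.13, limma adjusted p = 0.00194), or 1.61-fold. With a block on the final digit of the rat number in the model it was 0.37 and did not pass. Only digits 1 and 3 occur both at baseline and after placebo. In a model with this block the change over time thus rests mainly on rats with these digits, C13 among them.
In *Ccl6* the ZL rats had 9.32, 9.10, 9.22 and 7.97 at baseline and 8.49, 7.19, 8.37 and 8.41 after placebo. The ZO rats had 8.80, 8.84, 8.40 and 9.30 at baseline and 8.38, 8.06, 7.88 and 7.82 after placebo. The ZO groups were again apart (nearest rats 8.40 and 8.38), and in the ZL groups baseline rat C4 lay among the placebo rats. The averaged log2 fold change was -0.79 (standard error 0.19, limma adjusted p = 0.0158), and the call ended in a model of only the groups compared (adjusted p = 0.0904). It also ended with a block on the final digit of the rat number (-0.73). The 16 probiotic rats ran from 7.32 to 8.29 with a median of 7.87, and they were not tested against the baseline rats. Of 10 measured macrophage markers 0 passed in the averaged change, and 9 had a log2 fold change above 0 (median 0.26).
In *Ccr9* the ZL rats had 5.19, 5.50, 5.47 and 5.90 at baseline and 5.79, 6.18, 5.92 and 6.22 after placebo. The ZO rats had 5.19, 5.46, 5.41 and 5.44 at baseline and 5.58, 5.81, 5.46 and 5.43 after placebo, and both pairs of groups overlapped. The averaged log2 fold change was 0.35 (standard error 0.10, limma adjusted p = 0.0395). This call ended in the most settings: without any of 9 single rats (adjusted p from 0.0524 to 0.112), C13 among them (0.0805), and with quantile normalization, median centring or only the groups compared (0.0671 to 0.0984). With a block on the final digit of the rat number, where the calls of *Cxcl11* and *Ccl6* ended, it was 0.52 and passed.
Markers of several other cells also passed in the averaged change. Those higher were the enterocyte genes *Fabp1* and *Vil1* (log2 fold changes 0.16 and 0.14), *Jchain* of plasma cells (1.44), *Cd83* of dendritic cells (0.57) and *Tek* of blood endothelium (0.76). Those lower were *Spink4* of goblet cells (-1.43), *Alox15* from the eosinophil list (-0.74) and *Hbb* of red blood cells (-0.91). These were 2 of 10, 1 of 7, 1 of 8, 1 of 5, 1 of 5, 1 of 6 and 1 of 3 measured markers in that order of cell types, and their part in the 3 chemokine calls was not tested.

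**Figure D1:**
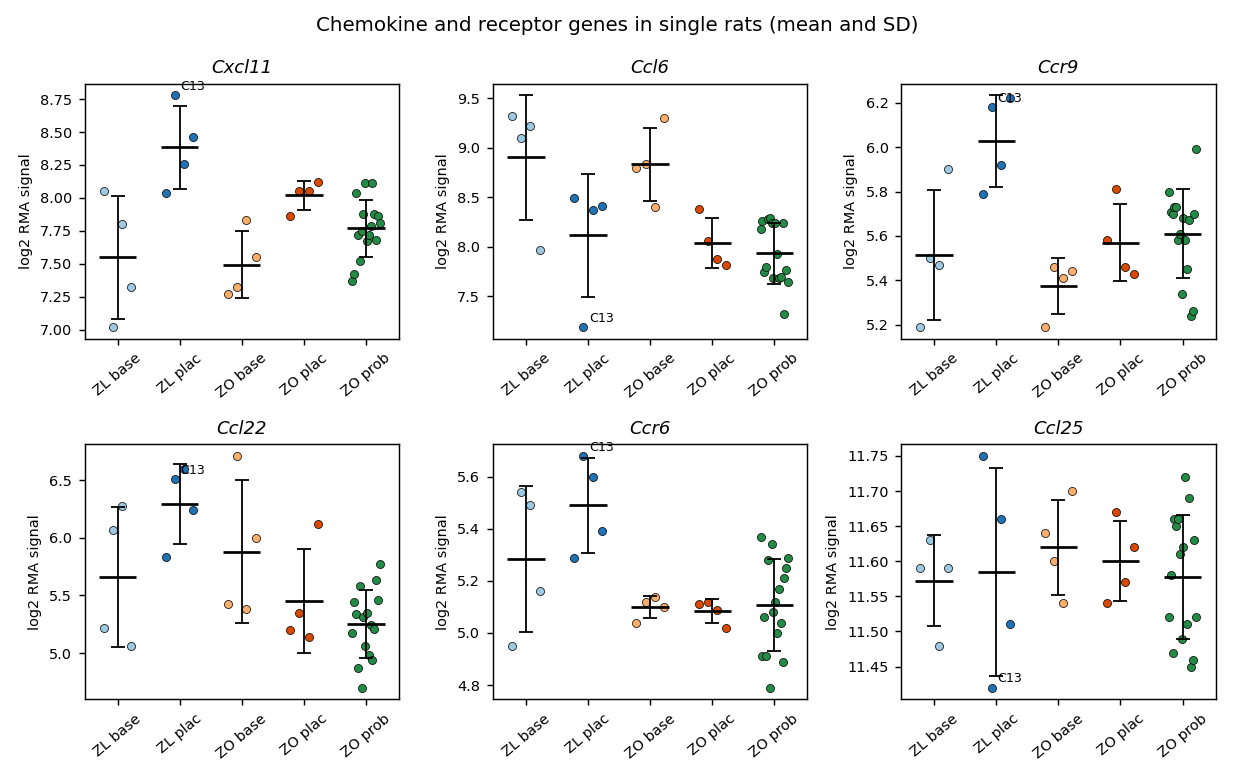
Log2 RMA signal (vertical axes) of 6 genes in each of the 32 rats, by group (horizontal axes; base, baseline; plac, placebo; prob, probiotic). Points are rats, horizontal lines means and bars SD, C13 is named, and the vertical axes do not start at 0 and differ between panels. In the change averaged over genotypes *Cxcl11* is higher (0.68) and *Ccl6* lower (-0.79) after 30 days, and *Ccl22* lies below all 4 ZL placebo rats in the 16 probiotic rats, while *Ccl25* stays between 11.42 and 11.75 in all rats.

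Within each genotype fewer genes passed. In ZL rats over time 1 of the 47 genes passed, where 0.911% of all probe sets did (0.733% higher and 0.178% lower): *Cxcl11* rose by 0.84 on the log2 scale (standard error 0.18, limma adjusted p = 0.0224). The call ended without C13 (0.71, adjusted p = 0.0908) or without placebo rat C16 (0.81, adjusted p = 0.0655). It also ended with quantile normalization (0.76, adjusted p = 0.0803), with arrays centred on their median (0.80, 0.0568) and in a model of only the groups compared (0.84, 0.488). With a block on the final digit of the rat number *Cxcl11* had 0.53 and did not pass. Without baseline rat C4 4 genes passed and without placebo rat C11 2. At an unadjusted p under 0.05 there were 14 of the 47 genes (29.8%), against 16.9% of all probe sets. Next after *Cxcl11* came *Ccr9* (log2 fold change 0.51, limma adjusted p = 0.0661), *Ccr7*, the receptor gene for CCL19 and CCL21 (0.35, 0.0842), *Ccl6* (-0.79, 0.14), *Cxcl1* (-0.24, 0.141) and *Cxcr6*, a receptor gene of tissue lymphocytes (0.64, 0.174). *Cxcl1* was the 1 gene whose ZL groups did not overlap, at 4.63, 4.41, 4.51 and 4.41 at baseline and 4.13, 4.28, 4.31 and 4.29 after placebo, and 5.88% of all probe sets were apart in this way.
In ZO rats over time 0 of the 47 genes passed with limma, where 1.36% of all probe sets did, and 8 (17.0%) had an unadjusted p under 0.05, against 12.1% of all probe sets. With array weights *Cxcl11* and *Ccl6* passed. *Cxcl11* had a log2 fold change of 0.53 (adjusted p = 0.16), *Ccl6* of -0.80 (0.16) and *Cxcl17*, a mucosal chemokine gene, of -0.28 (0.218), and these were the 3 genes whose ZO groups did not overlap, against 9.98% of all probe sets. *Cxcl9* followed (-0.50, 0.312), which was 4.01, 5.15, 3.91 and 5.27 at baseline and 4.11, 4.19, 3.93 and 4.10 after placebo, so that 2 baseline rats, Z2 and Z4, stood above all others. *Ccr1*, a receptor gene of monocytes, had 0.41 (adjusted p = 0.336). All 3 measured red blood cell markers fell in this comparison, with list means of 6.68 to 7.66 at baseline and 5.67 to 6.04 after placebo. *Fabp1* (0.25) and *Jchain* (1.48) were higher, *Spink4* (-1.58) and *Alox15* (-1.05) lower, and the part of these markers in the chemokine values was not tested.
Whether the change over time depended on genotype was tested directly, and 0 of the 47 genes passed with limma, where 0.00342% of all probe sets did. At an unadjusted p under 0.05 there were 2, *Ccl22* (ZO minus ZL -1.06, 95% confidence interval -1.86 to -0.27, adjusted p = 0.459) and *Cxcl9* (-0.81, -1.42 to -0.19, adjusted p = 0.468). For *Ccr3*, *Ccl1*, *Ccr7* and *Ccr9* the difference was 0.29, 0.24, -0.24 and -0.32 (adjusted p from 0.607 to 0.693), and for *Cxcl11* it was -0.31 with a 95% confidence interval from -0.83 to 0.21. The last interval allows a difference in either direction.

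By role, the averaged change over time had a median log2 fold change near 0 for most groups: -0.06 for the 7 resting CC ligands, 0.03 for the 12 inflammatory CC ligands, -0.04 for the 4 neutrophil ligands, 0.09 for the 9 CC receptors -0.02 for the 6 CXC receptors and -0.06 for *Ccl26* and *Ccr1l1*, where all 47 genes had 0.00 and all probe sets -0.01. The 3 interferon-induced ligands had 0.28 and the 4 other CXC ligands 0.62. Among the latter, *Cxcl12*, the stromal ligand of CXCR4, had 0.96 (standard error 0.30, limma adjusted p = 0.0632), and among the inflammatory CC ligands *Ccl11* had 0.94 (standard error 0.32, adjusted p = 0.0922). Neither passed, although these were the highest 2 values of the 47 genes. *Cxcl12* ran from 4.84 to 6.80 in ZL rats at baseline and from 6.46 to 7.42 after placebo. *Ccr7* (0.23, adjusted p = 0.0727), *Cxcr6* (0.53, 0.0783), *Ccl9*, a rodent CC ligand gene (0.50, 0.0842), and *Cxcl1* (-0.17, 0.0867) did not pass either.
The fibroblast markers are given beside these ligands. Their mean lay between 5.83 and 7.68 in ZL rats and between 6.12 and 7.38 in ZO rats at baseline, and between 6.62 and 7.68 and between 6.79 and 7.37 after placebo. Of the 6 markers 0 passed in the averaged change (median log2 fold change 0.35), and their part in the values of *Cxcl12* and *Ccl11* over time was not tested.

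**Figure D2:**
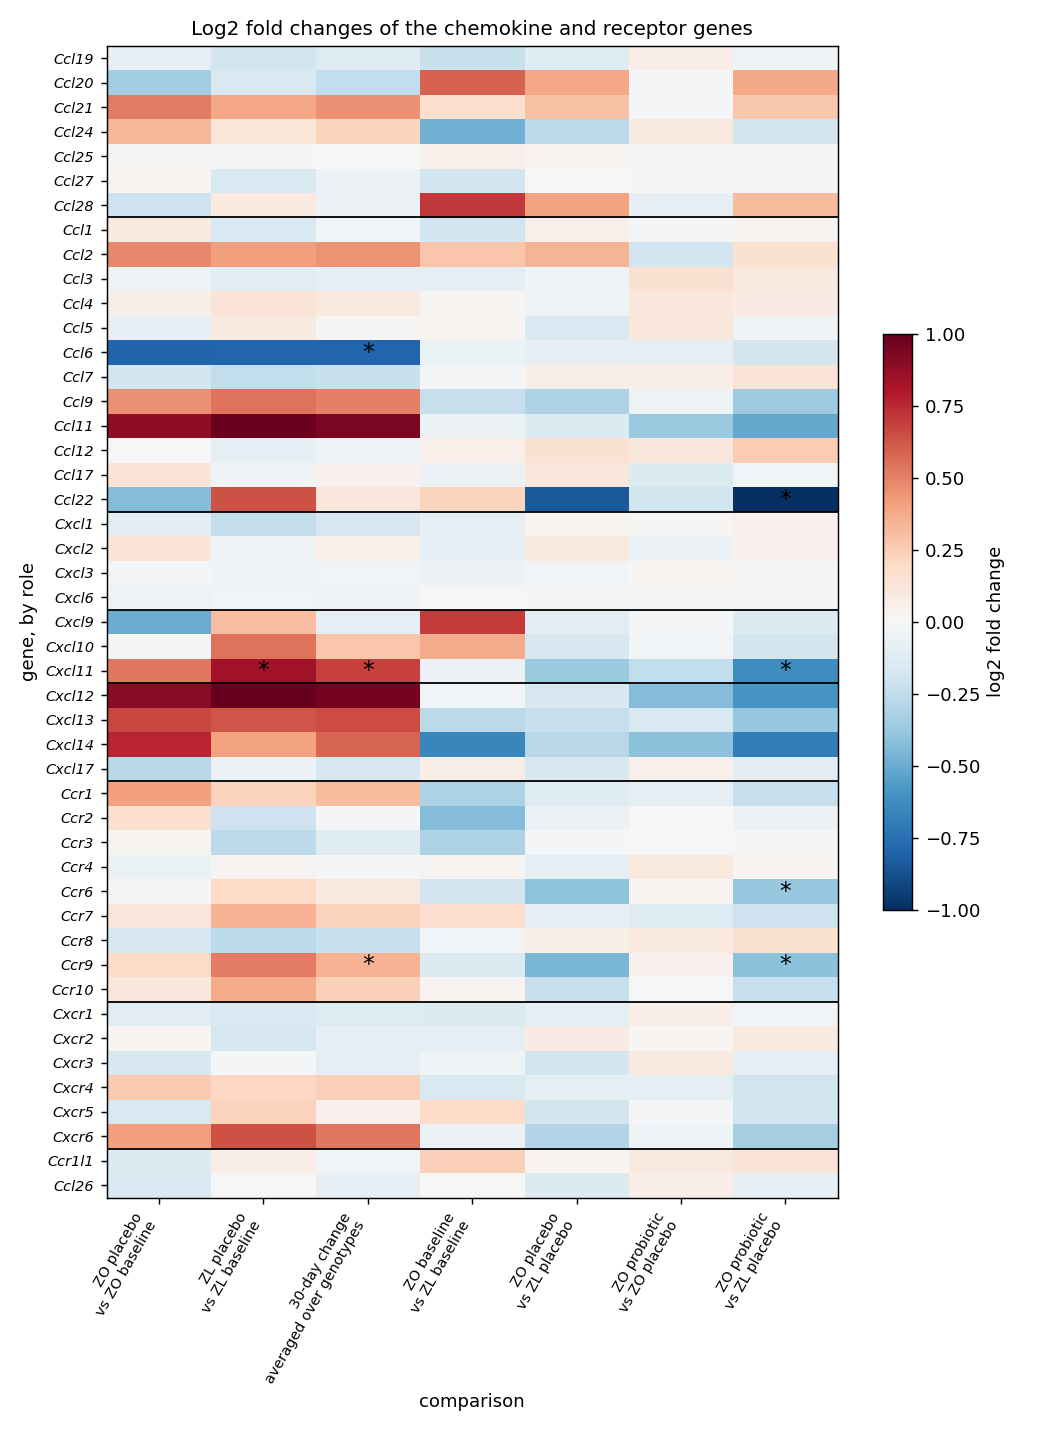
Log2 fold changes (colour, with the scale ending at 1 in either direction; red, higher in the group named first) of the 47 genes (rows, in blocks by role) in 7 comparisons (columns), with an asterisk where the limma adjusted p was under 0.05. There are 8 asterisks in 329 cells, on *Cxcl11*, *Ccl6*, *Ccr9*, *Ccl22* and *Ccr6*, and the column of probiotic against ZO placebo holds 0.

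Between genotypes 0 of the 47 genes passed, either at baseline, where 0% of all probe sets did, or after placebo, where 1.04% did. At baseline 6 genes (12.8%) had an unadjusted p under 0.05, against 11.5% of all probe sets, and after placebo 5 (10.6%), against 11.4%. Of the ligands of the gut epithelium, *Ccl25* had a log2 difference of 0.05 at baseline (limma adjusted p = 0.816). *Ccl28* was 6.98, 6.67, 6.79 and 7.30 in ZO rats and 5.99, 6.30, 5.88 and 6.72 in ZL rats at baseline, a log2 difference of 0.71 (standard error 0.24, limma adjusted p = 0.296). *Ccl20* was 7.32, 7.98, 7.50 and 7.84 in ZO rats and 7.20, 6.85, 7.40 and 6.82 in ZL rats, a difference of 0.59 (adjusted p = 0.311). In both *Ccl28* and *Ccl20*, 1 ZL rat reached into the range of the ZO rats. *Cxcl9* had 0.70 (adjusted p = 0.286), *Ccr1l1* 0.24 (0.329) and *Ccr3* -0.31 (0.296), and *Ccr3* was the 1 gene whose groups were apart, against 3.6% of all probe sets. After placebo *Ccl28* and *Ccl20* had differences of 0.40 and 0.39 (adjusted p = 0.549 and 0.496).
After placebo the lowest p belonged to *Ccr6*, the CCL20 receptor gene, which was 5.11, 5.12, 5.09 and 5.02 in ZO rats and 5.29, 5.68, 5.60 and 5.39 in ZL rats. Its groups did not overlap, as in 7.9% of all probe sets, and its log2 difference was -0.40 (standard error 0.12, limma adjusted p = 0.112). *Ccr9* had -0.46 (adjusted p = 0.123) and *Ccl22*, a macrophage and dendritic cell ligand, -0.84 (0.164), followed by *Cxcr3* (-0.19, 0.328) and *Cxcl11* (-0.37, 0.438). With array weights *Ccr6* and *Ccl22* passed. Of the marker lists only the mast cell list held a gene that passed, *Cma1* (-0.38), 1 of 7.

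In ZO rats that received a probiotic, 0 of the 47 genes differed from ZO placebo rats past the test with limma, where 0.00342% of all probe sets did, and 0 had an unadjusted p under 0.05, against 4.12% of all probe sets. The log2 fold changes lay between -0.43 (*Cxcl12*) and 0.15 (*Ccl3*), with a median of -0.02. For 43 of the 47 genes the 95% confidence interval lay within a 2-fold change in either direction. The 4 exceptions were *Cxcl13* (-1.26 to 0.95), *Cxcl14* (-1.12 to 0.31), *Cxcl12* (-1.11 to 0.25) and *Ccl11* (-1.10 to 0.35). The smallest p values belonged to *Ccl3* (0.15, interval -0.02 to 0.31), *Cxcl11* (-0.25, -0.54 to 0.04), *Ccr7* (-0.13, -0.30 to 0.04), *Cxcr3* (0.09, -0.04 to 0.22) and *Cxcl12* (limma adjusted p = 0.998 for all 5). *Cxcl11* ran from 7.37 to 8.11 in the 16 probiotic rats, with a median of 7.77, and from 7.86 to 8.12 in the 4 placebo rats. The 4 values of the ZO placebo group thus lay in the upper part of the probiotic range or just above it. The interferon-induced ligands had log2 fold changes from -0.25 to -0.02, and the neutrophil ligands from -0.06 to 0.02. Of the neutrophil ligands, *Cxcl2*, *Cxcl3* and *Cxcl6* had low mean signals of 2.88, 2.62 and 3.44. They are among the 9 of the 47 genes in the dimmest 30% of probe sets, where a change may go unseen and a narrow interval says little. Responses to single strains could not be compared here.

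Against the lean placebo control, 4 of the 47 genes were lower in the probiotic ZO rats and 0 were higher, where 4.66% of all probe sets passed (2.56% lower and 2.1% higher). They were the ligand genes *Ccl22* and *Cxcl11* and the receptor genes *Ccr6* and *Ccr9*. This comparison differs from the previous one in the genotype of the control, and both use the same 16 probiotic rats. Probiotic and control rats here differ in both genotype and treatment, and these cannot be told apart. *Ccl22* was 5.83, 6.51, 6.60 and 6.24 in ZL placebo rats and ran from 4.70 to 5.77 in the 16 probiotic rats, with a median of 5.28. No probiotic rat reached the lowest ZL rat, as in 1.4% of all probe sets. The log2 fold change was -1.04 (standard error 0.22, limma adjusted p = 0.00378), or 2.06-fold lower. The ZO placebo rats had 5.20, 5.35, 5.14 and 6.12, so that 3 of 4 lay within the probiotic range.
*Cxcl11* was 0.62 lower on the log2 scale (log2 fold change -0.62, standard error 0.14, adjusted p = 0.0086), and the probiotic range of 7.37 to 8.11 reached only ZL placebo rat C11 at 8.04. *Ccr6* ran from 4.79 to 5.37 in the probiotic rats, with a median of 5.10, against 5.29 to 5.68 in ZL placebo rats (log2 fold change -0.38, standard error 0.10, adjusted p = 0.0155). *Ccr9* ran from 5.24 to 5.99, with a median of 5.67, against 5.79 to 6.22 (-0.41, standard error 0.11, adjusted p = 0.0247). The ZO placebo rats ran from 5.02 to 5.12 in *Ccr6* and from 5.43 to 5.81 in *Ccr9*, within the probiotic ranges. In *Cxcl11* they ran from 7.86 to 8.12. Without C13 only *Ccl22* passed, and *Cxcl11* (-0.49, adjusted p = 0.0951), *Ccr6* (-0.32, 0.122) and *Ccr9* (-0.36, 0.137) did not. Without placebo rat C15 *Ccr6* did not pass (0.0698), and without C16 *Ccr9* did not (0.143).
*Ccr7* (-0.21, adjusted p = 0.157), *Ccl20* (0.38, 0.223), *Ccl12* (0.25, 0.293), *Ccl9* (-0.36, 0.308) and *Cxcl14*, a chemokine of stroma and epithelium (-0.69, 0.31), were next and did not pass. Some markers of leukocytes were also lower in this comparison. Of 10 measured macrophage markers 1 was lower and 0 had a log2 fold change above 0 (median -0.64), and the list mean lay between 6.56 and 7.41 in ZL placebo rats and between 5.98 and 7.20 in probiotic rats. Of 8 dendritic cell markers 2 were lower, with list means of 5.84 to 6.52 and 5.51 to 6.13. Of 10 B cell and follicle markers 1 was lower (median -0.50), with list means of 5.08 to 5.87 and 4.59 to 5.93. Of 6 cytotoxic markers 3 were lower, as were 3 of 7 mast cell markers. Higher were 2 of 10 epithelial markers, *Apoa4* and *Fabp1* (0.38 and 0.17), and 1 of 5 genes that vary along the gut, *Pyy* (1.32). Of 12 T cell and 6 fibroblast markers 0 passed, with medians of -0.09 and -0.50. No signal is 0 on this scale, and the part of these cells in the 4 calls was not tested.

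The other genes of the chemokine system, 17 measured of 19 listed, gave calls in the comparisons with ZL placebo rats. Against ZL placebo, 3 were lower in ZO placebo rats, where 1.04% of all probe sets passed: *Rgs1*, which shortens G protein signals of chemokine receptors in lymphocytes (log2 difference -0.98, limma adjusted p = 0.00298), *Dock2*, which links these receptors to the cytoskeleton in leukocytes (-0.60, 0.0168), and *Ackr3*, a scavenging receptor for CXCL11 and CXCL12 (-0.75, 0.0241). The same 3 were lower in probiotic rats (-0.78, -0.50 and -0.95), with *Pik3cg*, the leukocyte phosphoinositide 3-kinase gamma gene (-0.92, adjusted p = 0.00309), in addition, where 4.66% of all probe sets passed. Without C13 *Dock2* did not pass in ZO placebo rats (-0.53, adjusted p = 0.0845), and the other calls against ZL placebo did. The 2 comparisons share the ZL placebo rats. Over time *Rgs1* rose in ZL rats (0.79, adjusted p = 0.0314, where 0.911% of all probe sets passed), and in the averaged change *Cx3cl1*, the membrane-bound chemokine fractalkine (-0.48, adjusted p = 0.0126), and *Ackr4*, a scavenging receptor for CCL19, CCL21 and CCL25 (-0.96, adjusted p = 0.0328), fell, where 4.02% of all probe sets passed. In probiotic against ZO placebo rats, in ZO rats over time, in the difference between genotypes over time and between genotypes at baseline 0 of the 17 passed. Without C13 *Rgs1* in ZL rats (0.59, adjusted p = 0.127) and *Ackr4* (-0.84, 0.0792) did not pass.

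Rats of 1 group differed widely in some of these genes. The SD within groups had a median of 0.16 on the log2 scale over 17245 genes, and 18 of the 47 genes lay above the 90th percentile, 15 of the 31 ligands and 3 of the 16 receptors. The genes were not matched by signal level (receptor means ran from 2.57 to 6.07), and the part of signal level in this spread was not tested. *Cxcl13*, the ligand that builds B cell follicles, had 1.02, and ran from 5.68 to 9.34 in the 16 probiotic rats alone. It was followed by *Ccl2* (0.72), *Ccl11* (0.67), *Cxcl14* (0.66), *Cxcl12* (0.63) and *Ccl21* (0.59). *Ccl25* was the steadiest at 0.09, between 11.42 and 11.75 in all 32 rats, and its receptor gene *Ccr9* had the changes given above. A spread this wide limits what 4 rats can show: the standard error of a difference between 2 groups of 4 rats was 0.42 for *Cxcl12* and 0.45 for *Ccl11*, against a median of 0.114 over all probe sets.

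**Figure D3:**
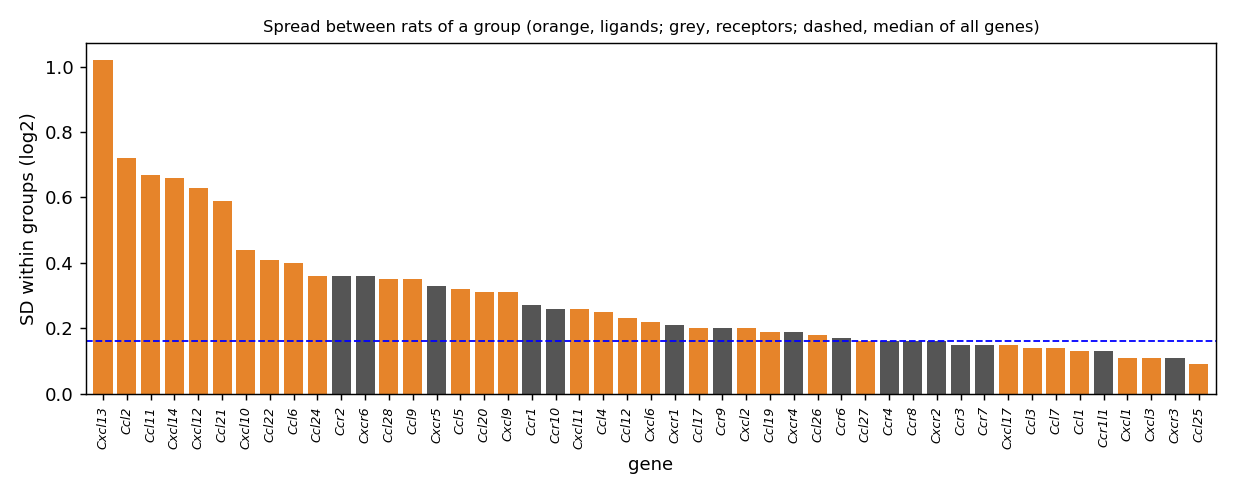
Standard deviation within groups on the log2 scale (vertical axis) of each of the 47 genes (horizontal axis), with ligands in orange, receptors in grey and the median of 17245 genes, 0.16, as a dashed line. *Cxcl13* has the widest spread at 1.02 and *Ccl25* the narrowest at 0.09.

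In some pairs, and not in most, part of this spread was shared by a ligand and its receptor. For 12 of 14 listed pairs both genes were measured (the other 2 were not analysed here), and their deviations from the group means were correlated over the 32 rats (permutation test within groups, two-sided, with adjustment over the 12 pairs). *Cxcl13* and *Cxcr5* had a Pearson r of 0.83 and a Spearman rho of 0.87 (permutation p = 1e-05 for both, the smallest that the permutations can give, adjusted p = 0.00012), with r = 0.77 in the 16 probiotic rats and 0.90 in the other 16. *Cxcl12* and *Cxcr4* had r = 0.61 and rho = 0.62 (permutation p = 0.0008 and 0.00074, adjusted p = 0.0048 and 0.0044), with r = 0.78 and 0.37 in the same sets of rats. *Ccl2* and *Ccr2* had r = 0.47 and rho = 0.49 (permutation p = 0.01 and 0.0063, adjusted p = 0.042 and 0.025), and without C13 the adjusted p of r was 0.064. Without the 2 rats farthest from the median of the ligand these r were 0.82, 0.59 and 0.39. *Ccl21* and *Ccr7* had r = 0.48 (permutation p = 0.018, adjusted p = 0.055) and rho = 0.49 (p = 0.015, adjusted p = 0.045). *Ccl28* and *Ccr10* had r = -0.41 (permutation p = 0.041, adjusted p = 0.097), which was -0.17 without probiotic rats Z46 and Z57. The mucosal pairs *Ccl25* with *Ccr9* (r = 0.08) and *Ccl20* with *Ccr6* (0.17), and the pairs *Ccl19* with *Ccr7* (-0.24), *Cxcl9* and *Cxcl10* with *Cxcr3* (-0.14 and 0.22), *Ccl11* with *Ccr3* (-0.19) and *Cxcl1* with *Cxcr2* (0.14) had adjusted p values from 0.49 to 0.84. All values of a rat come from 1 array and 1 piece of tissue.

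The genes were also set against the mean of the fibroblast and of the B cell and follicle markers, 94 relations chosen after the values had been seen. With adjustment over the 94, 10 genes were correlated with the fibroblast list and 4 with the B cell and follicle list, all with r above 0. *Cxcl12* had r = 0.95 and rho = 0.96 with the fibroblast list, *Cxcl14* 0.91 and 0.92, *Ccl11* 0.90 and 0.91, *Ccl2* 0.79 and 0.78, and *Ccl22* 0.79 and 0.78 (permutation p of at most 3e-05, adjusted p of at most 0.0004). *Ccr1* had r = 0.78, *Ccr6* 0.59, *Cxcl6* 0.57, *Cxcr4* 0.56 and *Ccl17* 0.55 (permutation test, adjusted p from 0.00023 to 0.037), and *Ccl17* did not pass with Spearman's rho (0.46, adjusted p = 0.082). *Cxcr5* had r = 0.89 and rho = 0.87 with the B cell and follicle list, *Cxcl13* 0.88 and 0.93, *Ccl21* 0.64 and 0.62, and *Ccl9* 0.59 and 0.53. For *Cxcl12*, *Cxcl14*, *Ccl11*, *Ccl2* and *Ccl22* r lay between 0.71 and 0.95 in the 16 probiotic rats and between 0.84 and 0.98 in the other 16. Without the 2 rats farthest from the median of the list (C3 and Z46 for fibroblasts, Z4 and Z25 for B cells) the 5 fibroblast relations had r from 0.77 to 0.95, and *Cxcr5* and *Cxcl13* 0.84 and 0.88. *Cxcl11*, *Ccl6* and *Ccr9*, which changed over time, had r = -0.21, 0.17 and 0.21 with the fibroblast list (adjusted p from 0.68 to 0.73).
These relations were not particular to fibroblast markers. The fibroblast list was itself correlated with 7 of the 16 other lists (permutation test within groups, with adjustment over 31 relations between lists, also chosen after the values had been seen). Its r was 0.93 with the macrophage list, 0.92 with blood endothelium, 0.91 with both the mast cell and lymphatic lists, 0.86 with plasma cells, 0.80 with smooth muscle and 0.76 with dendritic cells (rho from 0.77 to 0.95, permutation adjusted p of at most 0.00013), and 0.73 to 0.92 without the 2 rats farthest from the median of the fibroblast list. *Cxcl12*, *Cxcl14*, *Ccl11*, *Ccl2*, *Ccl22* and *Ccr1* were correlated with the same 7 lists, with r from 0.61 (*Ccl2* with smooth muscle) to 0.93 (*Cxcl12* with the mast cell, blood endothelium and lymphatic lists), with adjustment over 135 relations (permutation adjusted p of at most 0.0067) and r from 0.63 to 0.94 without the 2 farthest rats. *Ccl2* had r = 0.80 and *Ccr1* 0.81 with the macrophage list, against 0.79 and 0.78 with the fibroblast list, so the lists cannot be told apart as the cells that these genes follow. The B cell and follicle list had r = 0.13 with the fibroblast list (permutation adjusted p = 0.75), and with the other lists r lay between -0.45 and 0.27. With Pearson's r none of these relations passed, and with Spearman's rho the neutrophil list did (rho = -0.51, permutation adjusted p = 0.024).

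**Figure D4:**
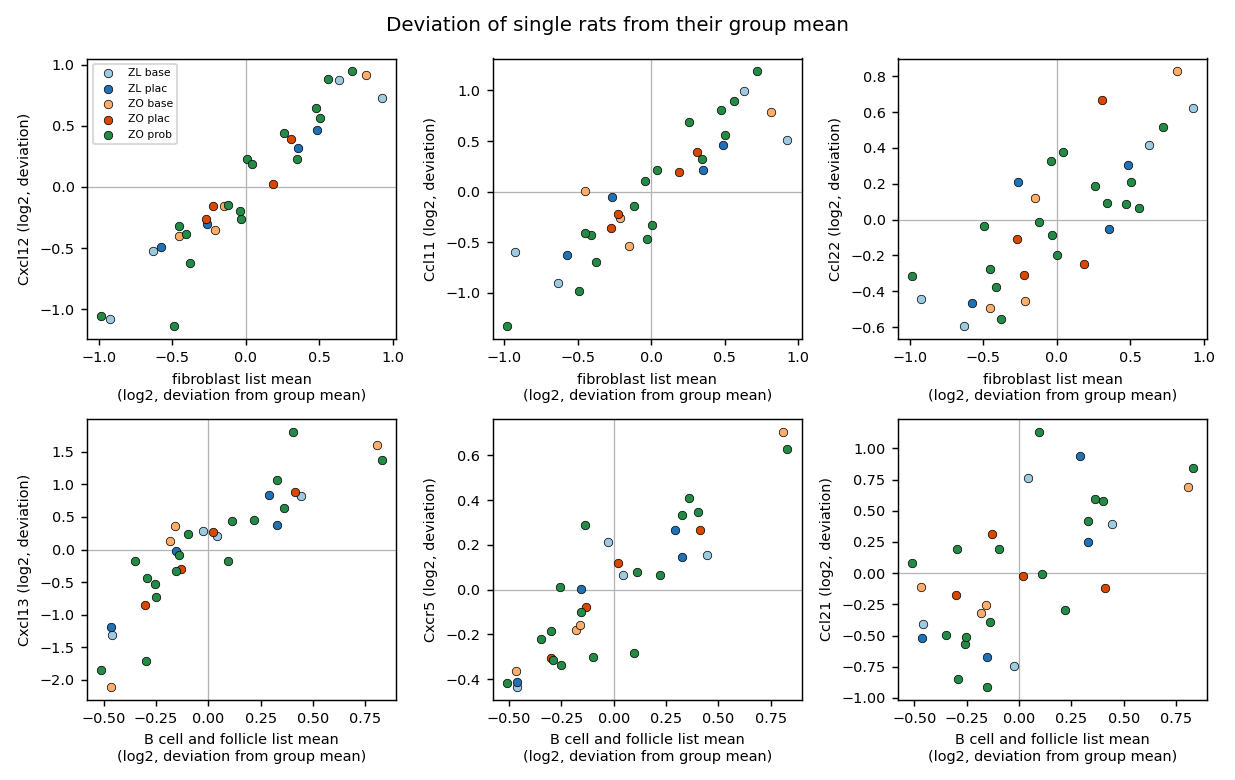
Deviation of each of the 32 rats from its group mean, on the log2 scale, for a marker list (horizontal axes) and a gene (vertical axes), with groups in colour. *Cxcl12*, *Ccl11* and *Ccl22* follow the fibroblast list (r = 0.95, 0.90 and 0.79), which is itself correlated with 7 other lists, and *Cxcl13*, *Cxcr5* and *Ccl21* the B cell and follicle list (r = 0.88, 0.89 and 0.64).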

How the data were processed

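Mucosal RNA of 32 rats was measured on Affymetrix arrays. The authors' methods name the Affymetrix Expression Console, which the processing notes of the submitters also list, and RMA in the Partek Genomics Suite. Each deposited value is a score with no fixed range, since the decimal point of the authors' log2 signal had been lost in nearly all of the 934848 values. The tests had been planned for log2 values. Numbers that began with 10, 11, 12 or 13 got their point after these 2 digits, and all others after 1 digit. The lowest correlation between arrays then went from 0.564 to 0.979. The placement was doubtful for 8 values, 0 of them in the 47 genes. Arrays have no read depth, and the number of rats limits their precision.

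Groups were taken from the sample titles. Gene names came from the platform annotation (18644 with 1 symbol, 962 with several, 9608 with none), and 1 matching probe set with several symbols was left out. Groups were compared with limma 3.58.1 in R 4.3.3, on all 29214 probe sets, in 8 comparisons. The method was also run on simulated data, in which probe sets varied independently of each other. Many genes here varied together, and no result rests on that run. Limma p values set a difference between groups against the spread between rats within groups. In the probiotic group, which holds several treatments, this spread includes any differences between them. The genes, roles, pairs and lists were chosen with earlier results of these data known. Named are genes past the threshold, the next 5 by p in each comparison, and pair members. Markers of 17 cell types or gut positions were read, and the counts that passed are given beside the chemokine results of the same comparison. Correlations used 100000 permutations. The alternatives were quantile normalization, median centring, leaving out the dimmest 30% of probe sets, 1 probe set per gene, the mean of a gene's probe sets, only the groups compared, array weights, a block on the final digit of the rat number, doubtful points placed at 1 and, in the groups of 4, each of 16 rats left out.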

Additional observations from a re-analysis of the deposited data

Results flagged for a closer look

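In groups of 4 rats, 8 of 188 tested gene and group combinations held a rat whose gap to the nearest other took a larger part of the group's range than Dixon's 95% critical value, where chance gives about 5% of such tests. ZL placebo rat C13 stood apart in 2 genes: its *Cxcl10* was 8.31 against 7.03 to 7.11 in the other 3 rats, and its *Ccl6* was 7.19 against 8.37 to 8.49. ZL baseline rat C4 had *Ccl6* at 7.97 against 9.10 to 9.32. ZL placebo rat C11 had *Ccl2* at 6.50 against 7.42 to 7.60. ZO placebo rat Z11 differed in 3 genes, with *Cxcl17* at 4.19 against 4.58 to 4.62, *Cxcl2* at 3.45 against 2.73 to 2.84 and *Cxcr1* at 3.10 against 3.28 to 3.29. ZO placebo rat Z16 had *Ccr10* at 5.16 against 5.02 to 5.04, a gap of little size.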

How the results depend on the processing

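Alternative settings moved 18 of the counts past the threshold and left 128 the same or nearly so, many of these at 0. No result changed direction, but each call of the 47 genes except that of *Ccl22* ended in at least 1 setting. In ZL rats over time 1 gene passed, against 0 with quantile normalization, 0 with arrays centred on their median, 0 in a model of only the groups compared and 0 to 4 without single rats. *Cxcl11* then had adjusted p = 0.0803, 0.0568 and 0.488. In ZO rats over time 0 genes passed, against 2 with array weights. In the averaged change 3 passed, against 1 with only the groups compared, 6 with array weights and 2 to 6 without single rats (6 without C4 or C11, 5 without ZO baseline rat Z4). *Ccl6* had adjusted p = 0.0904 with only the groups compared. *Ccr9* had 0.0984 with quantile normalization, 0.0671 with centred arrays and 0.0907 with only the groups compared. Between genotypes after placebo 0 passed, against 2 with array weights. In probiotic against ZL placebo rats 4 passed, against 1 to 4 without single rats, and *Ccl22* passed in every setting run. Without single rats the count stayed 0 to 0 in ZO rats over time, in the difference over time, in both genotype comparisons and in probiotic against ZO placebo rats. Of the ligand and receptor pairs 3 passed, against 2 without C13 and 4 with Spearman's rho. Only digits 1 and 3 occur both at baseline and after placebo, so a block on the final digit rests changes over time mainly on these rats. With the final digit of the rat number as a replicate block, 1 gene passed in ZO rats over time (*Cxcr6*), 5 in ZL rats over time (*Ccr7*, *Ccr9*, *Cxcl1*, *Cxcl9* and *Cxcr6*) and 6 in the averaged change. *Cxcl11* then had adjusted p = 0.0655 in ZL rats and 0.093 in the averaged change, and *Ccl6* 0.0591, while *Ccr9* passed in the averaged change (log2 fold change 0.52). Same-numbered rats of both genotypes, at baseline and after placebo, deviated together with r from -0.0373 to 0.232. Rats with different digits were not compared in this way, so whether the digits pair the rats cannot be told. The filter left out 9 of the 47 genes (mean under 3.54): *Ccl1*, *Ccl12*, *Ccl19*, *Ccr1l1*, *Cxcl2*, *Cxcl3*, *Cxcl6*, *Cxcr1* and *Cxcr2*. The cause of these shifts was not tested. Signals near background and 4 rats a group limit what could be seen.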
